A study of Homo sapiens with 12 samples.

Results

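ATP-binding cassette (ABC) transporters that carry drugs, conjugates and lipids out of cells were followed in U2OS cells, a human osteosarcoma line, after exposure to analogues of the plant hormones strigolactones. The members were 9 genes (ABCB1, ABCC1, ABCC2, ABCC3, ABCC4, ABCC5, ABCG2, ABCA1 and ABCA13), and every array probe that the platform annotation assigns to their symbols was read. Of these, 8 genes had a probe, 12 probes in all, out of 20045 genes with a probe. The signal of 9 probes of 7 genes was above the negative control probes of the array, by a detection p under 0.05, on both arrays of some group, and those 9 were tested among 22186 probes and 12290 genes. The probe of ABCG2 did not reach that limit. ABCC1 has no probe under its symbol in the annotation and is not analysed here.

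ABC transporters use the energy of ATP to move substrates across membranes. ABCB1 encodes P-glycoprotein, the classical multidrug resistance pump, which expels many hydrophobic anticancer drugs, and ABCG2 encodes a second pump of broad range, the breast cancer resistance protein. The ABCC genes named here encode multidrug resistance-associated proteins, which export organic anions, among them conjugates with glutathione, glucuronate or sulfate and, for ABCC4 and ABCC5, cyclic nucleotides. ABCA1 exports cholesterol and phospholipid to apolipoproteins. ABCA13 is a very large member of the lipid-transporting A subfamily with a less well defined role. In tumors, osteosarcoma included, the pumps are known for resistance to chemotherapy.

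The 12 arrays were Illumina bead arrays of total RNA, 1 per sample, in 6 groups of 2 labelled replicates. Control cells received the acetone vehicle alone for 6 h or 24 h, and treated cells received 5 ppm of ST362 or 5 ppm of MEB55 in acetone for 6 h or 24 h. The analogues were thus matched by mass and not by molarity. By the study's conversion from ppm, the molar dose of MEB55 was the higher. The analogues are known here by code names only, and all groups share 1 cell line. The study describes its arrays as drawn from independent experiments, but the labels do not say which arrays share an experiment or a culture. The p-values measure the spread between these samples, and in bulk RNA fewer expressing cells and less RNA per cell cannot be told apart.

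Median signals were 80.7 to 90.4 per array and 42.7% to 47.4% of the probes were detected, with an upper quartile of 149.3 for vehicle 6 h replicate 1 and 115.1 to 125.4 elsewhere. Of the markers of bone and mesenchymal cells, COL1A1, SPARC, VIM and ALPL were detected on 12 arrays, RUNX2 on 7 and COL1A2 on 1. The epithelial markers EPCAM and KRT8 and the liver marker ALB were also detected on 12 arrays and CDH1 on 3, whereas the blood markers PTPRC and CD3E and the liver marker CYP3A4 were detected on 0. COL1A1 read 8.89 to 9.14 on vehicle, 6.86 to 8.56 with ST362 and 7.01 to 8.82 with MEB55. RUNX2 was detected on 4 vehicle, 2 ST362 and 1 MEB55 arrays. SPARC read 7.58 to 8.90, 6.79 to 8.65 and 7.33 to 9.06 in that order, and overlapped vehicle with both analogues. So did ALPL, at 6.11 to 8.02, 5.54 to 8.18 and 6.12 to 8.16. The summed signal of these 6 bone and mesenchymal markers was 7380 to 10580 on vehicle arrays, 6150 to 8524 on ST362 arrays and 5860 to 7274 on MEB55 arrays. With ST362 the sum overlapped vehicle. Most of it was VIM, at 12.66 to 13.19 on vehicle, 12.49 to 12.86 with ST362 and 12.39 to 12.54 with MEB55. No other marker of that list read above 9.14. The part of this in the member values was not tested. The summed signal of the 3 epithelial markers also overlapped between the treatments (620.5 to 1051, 612.9 to 988.6 and 462.7 to 1122). All 8 analogue arrays resembled, among the arrays of their analogue, an array with the other time label more than their own replicate. Whether the time labels of some arrays were exchanged cannot be settled from the labels and was not tested, so every value labelled 6 h or 24 h carries that doubt. Values are therefore given array by array, and the 4 arrays of a treatment over both times were compared in addition to the labelled groups. Levels are log2 signals after background correction and quantile normalization, and levels of different probes are not comparable with each other.

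The start regions of ABCB1 and ABCC5 are shown because these genes gave their highest signals on the same 4 arrays, on which heat shock genes were also high. The sequences are from RefSeq (GRCh38.p14), 5′ to 3′ on the minus strand, from which both genes are transcribed, and end at the base before an annotated transcript start. ABCB1 has annotated starts at 2 places, and the windows are chr7:87600885-87601134, chr7:87713296-87713545 and, for ABCC5, chr3:184017885-184018134. Capitals mark GAANNTTC or TTCNNGAA, paired units of the heat shock element, and CCAAT on either strand.
ABCB1, downstream start: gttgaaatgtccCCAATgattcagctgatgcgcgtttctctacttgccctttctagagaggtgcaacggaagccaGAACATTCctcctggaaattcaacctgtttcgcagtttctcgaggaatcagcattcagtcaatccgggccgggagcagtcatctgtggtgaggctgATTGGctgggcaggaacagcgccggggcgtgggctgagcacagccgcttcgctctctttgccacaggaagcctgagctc
ABCB1, upstream start: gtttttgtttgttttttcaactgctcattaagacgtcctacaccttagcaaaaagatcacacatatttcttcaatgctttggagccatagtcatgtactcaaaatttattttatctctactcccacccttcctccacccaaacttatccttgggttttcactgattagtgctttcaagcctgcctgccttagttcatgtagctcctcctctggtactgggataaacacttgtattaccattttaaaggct
ABCC5: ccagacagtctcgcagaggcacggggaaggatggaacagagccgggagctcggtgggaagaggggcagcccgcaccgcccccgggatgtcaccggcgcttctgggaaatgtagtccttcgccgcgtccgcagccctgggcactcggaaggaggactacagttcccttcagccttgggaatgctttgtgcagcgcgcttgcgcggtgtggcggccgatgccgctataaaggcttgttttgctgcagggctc
The downstream ABCB1 window held GAACATTC, 175 to 168 bases before the start, CCAAT at 238 to 234 and its reverse complement ATTGG at 79 to 75. The upstream ABCB1 window and the ABCC5 window held neither motif. Among 35116 windows of the same 250 bases in the reference, 11.6% held a paired heat shock unit, 32% held CCAAT on either strand and 3.86% held both. Both strands were also searched for TGATGNAA, the type bound by ATF4 with CHOP, and TGACNNNGC, the antioxidant response type. Of the 12 windows of the 7 members that had one, 1 of ABCA13 held the former (3.14% of all windows) and 1 of ABCC4 the latter (10.9%). These matches describe letters only.

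ABCB1 was uniform in vehicle cells and split in both analogue groups. Its tested probe (ILMN_1812070) read 5.90 and 6.15 in vehicle at 6 h and 6.04 and 5.95 in vehicle at 24 h, in the order replicate 1, replicate 2. With ST362 it read 7.83 and 6.09 at 6 h and 6.37 and 7.71 at 24 h. With MEB55 it read 8.60 and 6.44 at 6 h and 6.20 and 9.27 at 24 h. In each analogue group 1 array thus stood far above vehicle while the other lay within 0.43 of the vehicle mean on the log2 scale, and the array that stood out was replicate 1 at 6 h and replicate 2 at 24 h. The deposited signals behind these levels were 124 to 151.9 on the vehicle arrays, and 262.2, 252.2, 419.3 and 648.8 on ST362 6 h replicate 1, ST362 24 h replicate 2, MEB55 6 h replicate 1 and MEB55 24 h replicate 2.

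The other ABCB1 probe (ILMN_2094875) was detected on those 4 arrays only, where it read 5.17, 5.65, 6.30 and 6.64 in the same order. On the remaining 8 arrays it lay between 4.24 and 4.48 and was not above background, so it was not tested. Across the 12 arrays it correlated with the tested probe at r = 0.972, and at 0.908 without the 2 arrays farthest from the median, which were the MEB55 arrays among the 4. The split of ABCB1 was thus seen with both of its probes.

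The same 4 arrays carried the highest levels of HSPA6, a stress-inducible HSP70 gene, of HSPA1B, another inducible HSP70 gene, and of DDIT3, the gene of the stress-responsive factor CHOP. HSPA6 read 10.50 and 11.06 on the ST362 arrays and 11.01 and 12.54 on the MEB55 arrays named above, against 4.75 to 5.61 on the other analogue arrays and 4.41 to 4.73 on vehicle. DDIT3 read 8.21, 9.25, 9.43 and 10.38 there, against 6.39 to 6.55 and 6.00 to 6.48. ABCB1, HSPA6 and DDIT3 therefore picked out the same arrays, and the part of the stress response or of sample handling in the ABCB1 level was not tested.

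**Figure D1:**
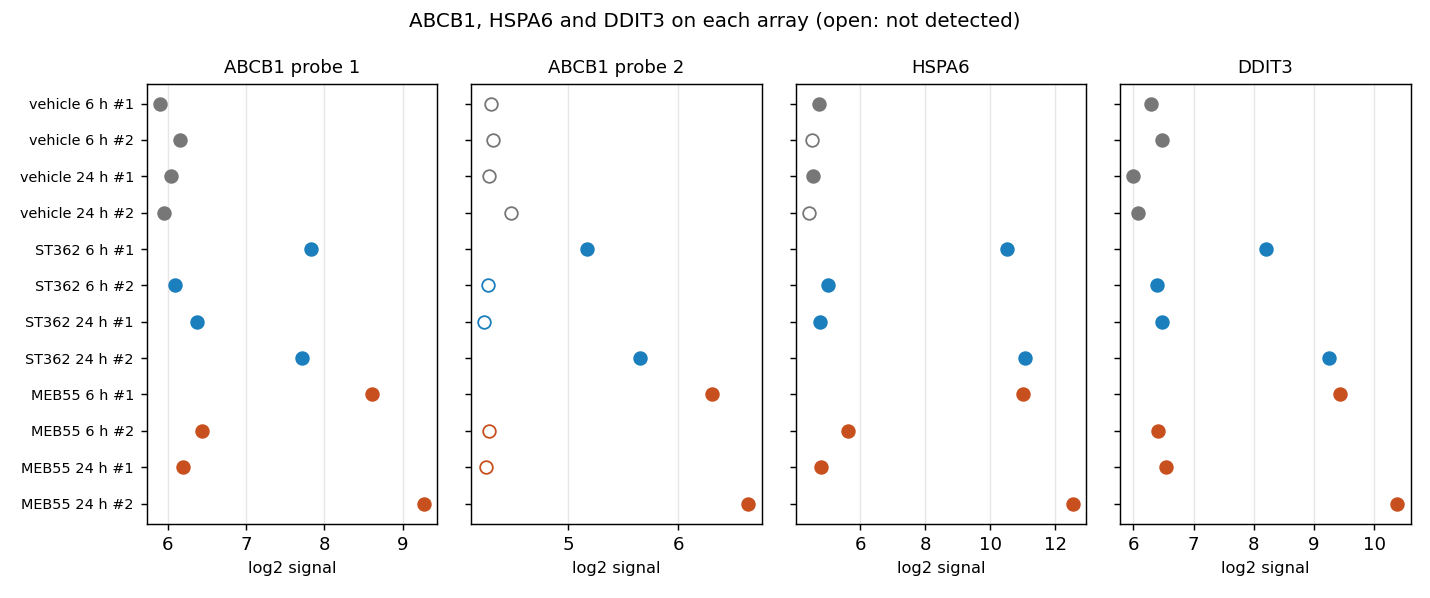
Log2 signal (x axis, a scale of its own in each panel) of both ABCB1 probes, HSPA6 and DDIT3 on each of the 12 arrays (rows; #1 and #2 are replicate numbers; grey vehicle, blue ST362, red MEB55; open points are not detected). In all 4 panels the same 4 analogue arrays lie to the right of every vehicle array, and the tested ABCB1 probe reaches 9.27 on MEB55 24 h replicate 2.

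No ABCB1 comparison passed the limma test. At 6 h the log2 fold change against vehicle came to 0.93 for ST362 (SE 0.97, adjusted p = 0.885) and 1.495 for MEB55 (SE 0.97, adjusted p = 0.986). At 24 h ST362 gave 1.04 (SE 0.97, adjusted p = 0.839), while MEB55 gave 1.74 (SE 0.97, adjusted p = 0.931). Over both times, 4 arrays against 4, the means were 6.01 ± 0.11 (SD) in vehicle, 7.00 ± 0.90 with ST362 and 7.63 ± 1.54 with MEB55, a difference from vehicle of 0.99 for ST362 (SE 0.59, adjusted p = 0.512) and of 1.62 for MEB55 (SE 0.59, adjusted p = 0.312). The SD between the arrays of an analogue was nearly as large as its difference from vehicle. Leaving out MEB55 24 h replicate 2 took the MEB55 value at 24 h from 1.74 to 0.20, leaving out MEB55 6 h replicate 1 took that at 6 h from 1.495 to 0.41, and leaving out ST362 6 h replicate 1 or ST362 24 h replicate 2 took the ST362 values to 0.06 and 0.37.

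Between the analogues ABCB1 differed by 0.63 over both times (MEB55 minus ST362, 95% interval -0.63 to 1.89, adjusted p = 0.846; 0.08 without MEB55 24 h replicate 2 and at most 1.11 with another array left out), by 0.56 at 6 h (-1.58 to 2.70) and by 0.70 at 24 h (-1.45 to 2.84). On the arrays where it was high it read 8.60 and 9.27 with MEB55 and 7.83 and 7.71 with ST362, values given side by side without a test. At equal mass dose these intervals include no difference as well as higher or lower levels with MEB55. In vehicle, ABCB1 at 24 h differed from 6 h by -0.03 (SE 0.97, which pools the spread of all 6 groups, the analogue arrays included).

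The genes whose pattern over the 12 arrays was most like ABCB1, among 12246 genes, were ZFAND2A (r = 0.982), DNAJB9 (0.980), HSPA7 (0.978), DDIT3 (0.978) and BAG3 (0.974). HSPA6 gave 0.970 and HSPA1B 0.930. Without the 2 MEB55 arrays farthest from the ABCB1 median the same 5 genes gave 0.940 to 0.972. HSPA7 is a near-identical relative of HSPA6, so their probes may share signal. The 12 points share 3 treatments and the 4 high arrays, so these values describe likeness and carry no test.

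Among the multidrug resistance-associated proteins, ABCC2 was near background. ABCC2 encodes the export pump of conjugates found at the canalicular face of liver cells. Its probe read 4.37 and 4.27 in vehicle at 6 h and 4.43 and 4.46 at 24 h, and was not detected on any of these 4 arrays. With ST362 it read 4.80 and 4.33 at 6 h and 4.44 and 4.75 at 24 h, detected on 2 of 4 arrays. With MEB55 it read 5.24 and 4.79 at 6 h and 5.04 and 4.81 at 24 h, detected on 4 of 4 arrays and above every vehicle array. The 2 ST362 arrays that were detected were again 6 h replicate 1 and 24 h replicate 2, whereas with MEB55 the arrays low in ABCB1 were detected as well.

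Since vehicle gave only an upper limit, the group means placed ABCC2 with MEB55 at least 1.38-fold higher over both times. The bounds at 6 h and 24 h were 1.44-fold and 1.32-fold. The bound sets the mean of the bright group against the higher, on each dim array, of the probe's own level and the lowest level among detected probes. It holds no sampling error, and none of these contrasts passed the test. The ABCC2 probe entered the test only through the MEB55 groups, the only ones with both arrays detected. Its p-values, calls and counts with MEB55 are therefore not independent of that filter. The fitted log2 fold change over both times was 0.59 (SE 0.14, adjusted p = 0.0935), the lowest adjusted p of the members, and did not pass. For ST362 it was 0.20 (SE 0.14, adjusted p = 0.596). Between the analogues the difference came to 0.39, MEB55 being higher (95% interval 0.09 to 0.69, adjusted p = 0.469). The unadjusted interval lies above 0 while the difference did not pass after adjustment over all probes. Without background correction the MEB55 value was 0.17, a smaller difference than the bound above. Of the liver markers, ALB was above every vehicle array on all 8 analogue arrays (5.94 to 6.17 on vehicle, 6.32 to 6.83 with ST362, 6.28 to 6.72 with MEB55), while CYP3A4 was detected on 0 arrays, and their part in the ABCC2 level was not tested.

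ABCC5, an exporter of cyclic nucleotides and nucleotide analogues, followed the arrays in the way of ABCB1, with smaller differences. Its brightest probe (ILMN_1706531) read 6.21, 6.52, 6.32 and 6.42 on the vehicle arrays (6 h replicates 1 and 2, then 24 h replicates 1 and 2). In the same order it read 7.13, 6.51, 6.27 and 7.17 with ST362 and 7.01, 6.59, 6.66 and 7.18 with MEB55. The highest array of each analogue group was the one with the high ABCB1 level, and its r with ABCB1 over 12 arrays was 0.888, or 0.920 without the 2 arrays farthest from the ABCB1 median. All MEB55 arrays lay above all vehicle arrays, the lowest at 6.59 against a highest vehicle level of 6.52.

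The log2 fold change of this ABCC5 probe over both times came to 0.40 for ST362 (SE 0.20, adjusted p = 0.421) and to 0.49 for MEB55 (SE 0.20, adjusted p = 0.385). The analogues differed by 0.09 (95% interval -0.34 to 0.52). A further probe (ILMN_1651964) read 6.31 to 6.38 on vehicle and 6.94, 6.06, 6.45 and 6.62 with ST362 and 6.59, 6.10, 6.23 and 6.64 with MEB55, with fitted values of 0.18 and 0.05. Both tested probes were highest in each analogue group on the array with high ABCB1. The probes disagreed on the analogues, since the second gave MEB55 minus ST362 as -0.13. The remaining ABCC5 probe (ILMN_2302358) was detected only on vehicle 6 h replicate 1 and was not tested.

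ABCC4, an exporter of cyclic nucleotides and prostaglandins, was lower with ST362 by a margin that did not pass the test. Its brightest probe (ILMN_2194009) read 7.59, 7.33, 7.70 and 7.90 on vehicle in the order used above. It read 7.17, 7.29, 6.73 and 7.34 with ST362 and 7.29, 7.89, 7.50 and 7.36 with MEB55. The ST362 arrays overlapped vehicle only through 1 array, 24 h replicate 2, which at 7.34 stood just above the lowest vehicle array at 7.33. Over both times ST362 gave -0.50 (SE 0.17, adjusted p = 0.228), MEB55 gave -0.12 (SE 0.17, adjusted p = 0.887), and the analogues differed by 0.38 (95% interval 0.00 to 0.75, adjusted p = 0.627).

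The second ABCC4 probe (ILMN_1788457) read 6.97 to 7.44 on vehicle, 6.81 to 7.13 with ST362 and 6.96 to 7.77 with MEB55. Its log2 fold change was -0.35 for ST362 (SE 0.17, adjusted p = 0.426), 0.04 for MEB55 (SE 0.17, adjusted p = 0.966) and 0.39 between them (95% interval 0.01 to 0.76, adjusted p = 0.618). Both probes thus placed ST362 below MEB55 by about the same amount, and neither passed. Their r over the 12 arrays was 0.790, and neither followed ABCB1 (r = -0.302 and -0.003).

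ABCC3, an exporter of glucuronides and bile acids, varied more between arrays than between treatments. It read 6.49 and 6.28 in vehicle at 6 h and 7.63 and 7.50 at 24 h, so the vehicle groups did not overlap (log2 fold change 1.18, SE 0.60, adjusted p = 0.9996). That SE pools the spread of all 6 groups, the analogue arrays included. With ST362 it read 6.36 and 8.39 at 6 h and 7.16 and 7.20 at 24 h, and with MEB55 6.39 and 7.96 at 6 h and 6.92 and 7.54 at 24 h. At 6 h replicate 2 was the high array with both analogues, the opposite of ABCB1. Over both times ST362 gave 0.30 (SE 0.43, adjusted p = 0.824), MEB55 gave 0.23 (SE 0.43, adjusted p = 0.915), and the analogues differed by -0.07 (95% interval -0.99 to 0.84).

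**Figure D2:**
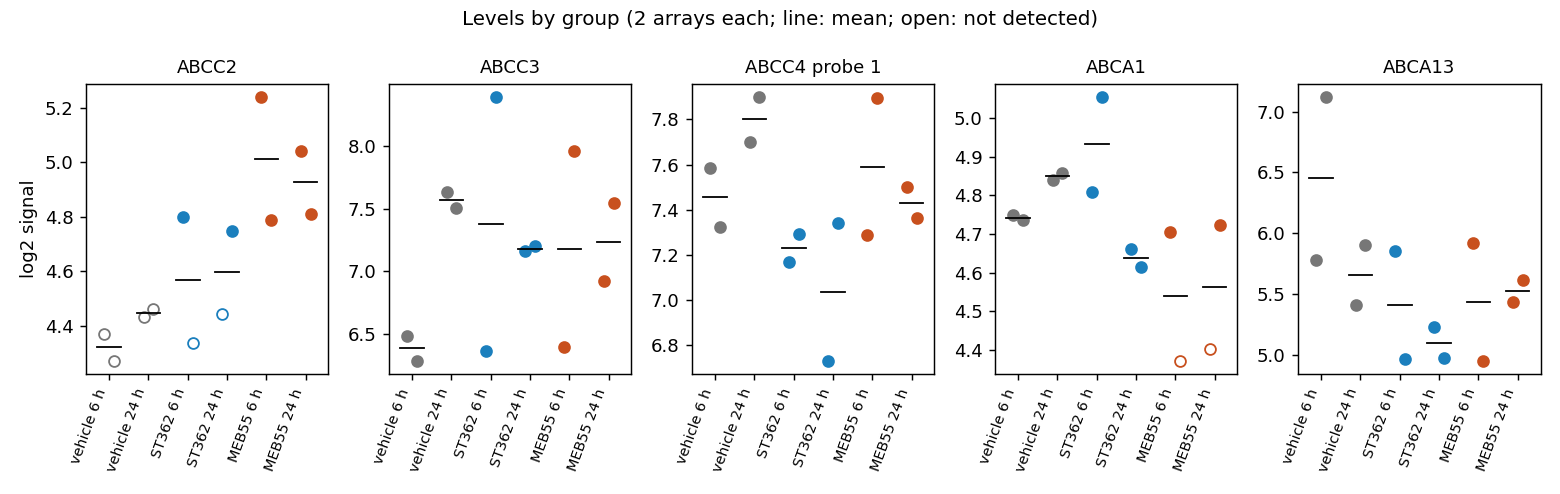
Log2 signal (y axis, a scale of its own in each panel) of ABCC2, ABCC3, the brightest ABCC4 probe, ABCA1 and ABCA13 in the 6 groups (x axis; 2 arrays per group with replicate 1 on the left, black lines are means, open points are not detected). ABCC2 is open on all vehicle arrays and filled on all MEB55 arrays, and ABCA13 reaches 7.12 on 1 vehicle array.

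The breast cancer resistance protein gene ABCG2 gave no detectable signal. Its only probe lay between 4.15 and 4.29 on the 12 arrays with detection p from 0.323 to 0.943, so the probe was not well above background in any group and no fold is given.

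The lipid transporter ABCA1 was close to background as well. It read 4.75, 4.74, 4.84 and 4.86 on vehicle, 4.81, 5.05, 4.66 and 4.62 with ST362 and 4.70, 4.37, 4.40 and 4.72 with MEB55. The MEB55 arrays all lay below the vehicle arrays, and on 2 of them (6 h replicate 2 and 24 h replicate 1) the probe was not detected. The log2 fold change over both times came to -0.25 for MEB55 (SE 0.13, adjusted p = 0.546) and -0.01 for ST362 (SE 0.13, adjusted p = 0.986), and the analogues differed by -0.24 (95% interval -0.51 to 0.04). The MEB55 value was -0.07 without background correction.

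ABCA13 was highest on 1 vehicle array. It read 5.78 and 7.12 in vehicle at 6 h and 5.41 and 5.91 at 24 h. With ST362 it read 5.86 and 4.97 at 6 h and 5.23 and 4.97 at 24 h, and with MEB55 5.92 and 4.95 at 6 h and 5.44 and 5.62 at 24 h. Both analogue groups overlapped vehicle. The log2 fold change over both times came to -0.80 for ST362 (SE 0.32, adjusted p = 0.295) and -0.57 for MEB55 (SE 0.32, adjusted p = 0.576), and the analogues differed by 0.23 (95% interval -0.46 to 0.91). Without background correction the values against vehicle were -0.34 and -0.26.

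Much of the ABCA13 difference came with vehicle 6 h replicate 2. At 6 h the fitted values were -1.04 with ST362 and -1.02 with MEB55 (SE 0.46; adjusted p = 0.847 and 0.986), and without that array they were -0.37 and -0.34. Over both times they became -0.44 and -0.22 without it. At 24 h they were -0.56 (adjusted p = 0.818) and -0.13 (adjusted p = 0.991). These fold changes do not use that array. Their adjusted p does, since the SE pools the spread of all 6 groups. The genes most like ABCA13 over the 12 arrays were ST6GALNAC6 (r = 0.966), MIF4GD (0.918), CEP70 (0.910), CAMK2N2 (0.907) and UBN1 (0.907), and 0.770 to 0.917 without the 2 arrays farthest from its median, vehicle 6 h replicate 2 and MEB55 6 h replicate 2. Its r with HSPA6 was -0.0658, against 0.970 for ABCB1.

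**Figure D3:**
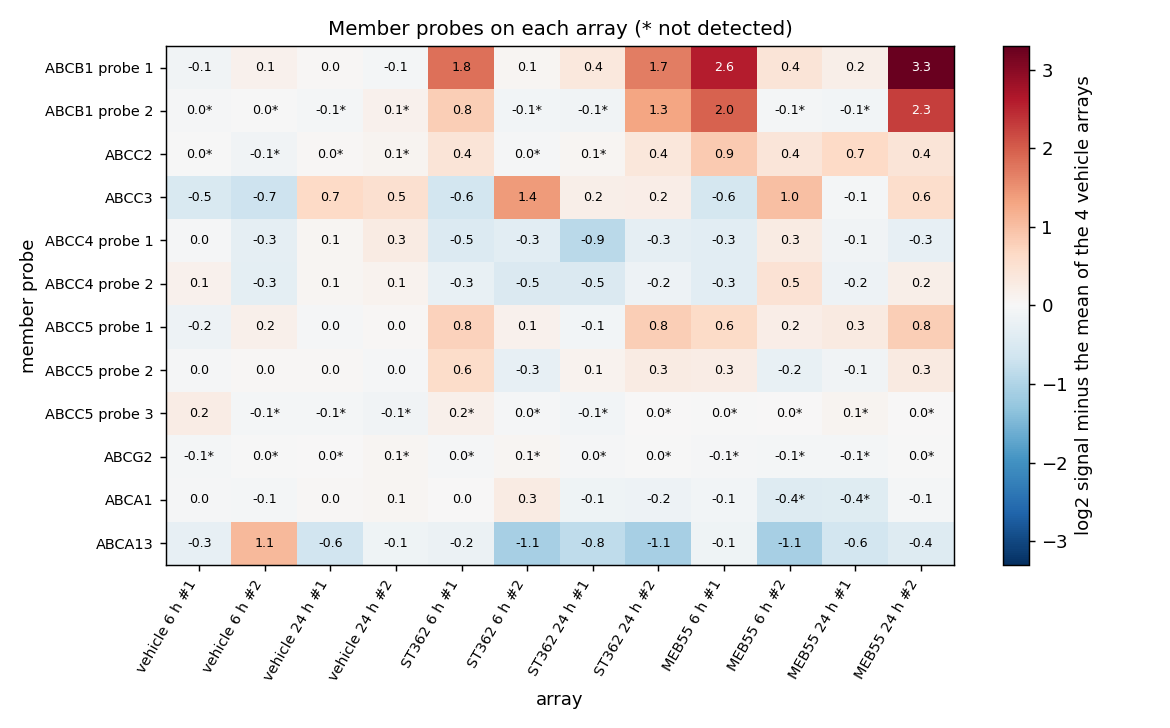
Log2 signal minus the mean of the 4 vehicle arrays (colour and printed values) for the 12 member probes (rows) on the 12 arrays (columns; #1 and #2 are replicate numbers; an asterisk marks a probe not detected on that array). Both ABCB1 probes and the first 2 ABCC5 probes are highest on the same 4 analogue arrays, while ABCC3, ABCC4 and ABCA13 vary in other ways.

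Taking the 7 tested members by their brightest probe, 0 passed at an adjusted p under 0.05 in any comparison. Of these, ABCC2 was tested only through the MEB55 groups, so its counts with MEB55 are not independent of that filter. In the labelled comparisons of each analogue with vehicle at each time, of the analogues with each other, of the effects at 24 h and 6 h and of vehicle at both times, the share of all tested probes that passed was 0% as well. At an unadjusted p under 0.05, 1 member was found for ST362 at 6 h (ABCA13), 2 for MEB55 at 6 h (ABCC2 and ABCA13), 1 for ST362 at 24 h (ABCC4) while MEB55 at 24 h and the remaining comparisons of the 6 groups had 0, beside 5.81%, 4.63%, 7.59% and 5.31% of the 22186 probes in the first 4 and, in the rest, 2.75% and 3.62% between the analogues at 6 h and 24 h, 2.86% between the vehicle times and 2.47% and 1.41% for the change of the ST362 and MEB55 effects with time. An unmoderated model with a 2-fold cutoff, after the study's methods but applied here to the normalized values and the groups as labelled, called 0 members. This outcome is not set against the study's own calls. Those name ABCB1 at 6 h with both analogues and ABCA13 among the genes altered at 24 h.

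Over both times 0.577% of all probes passed for ST362, 0.446% for MEB55 and 0.018% between the analogues. At an unadjusted p under 0.05 there were 2 members for ST362 (ABCC4 and ABCA13), 3 for MEB55 (ABCB1, ABCC2 and ABCC5) and 2 between the analogues (ABCC2 and ABCC4), beside 13.2%, 10.5% and 7.88% of all probes. Both counts that hold ABCC2 involve MEB55, the only treatment through which its probe was tested, and are not independent of that filter. The median log2 fold change of the 7 members was 0.20 with ST362 and 0.23 with MEB55, beside -0.01 for all genes in each comparison, with 4 of 7 members above 0 in both. Since both comparisons share the vehicle arrays, their values are given side by side only.

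Counted by arrays that do not overlap, with no test, 3 of the 9 tested member probes had all 4 MEB55 arrays above all 4 vehicle arrays. These were ABCB1, ABCC2 and the brightest ABCC5 probe, beside 3.26% of all tested probes. Of the 9, 1 had them below (ABCA1), beside 3.41%. The other tested ABCC5 probe overlapped vehicle, and ABCC2 was tested only through the MEB55 groups. For ABCB1 the separation was narrow, the lowest MEB55 array being 6.20 and the highest vehicle array 6.15. For ST362 the count was 0 in both directions (4.07% of all probes higher and 4.3% lower), and between the analogues it was 0 as well (1.78% and 1.99%).

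**Figure D4:**
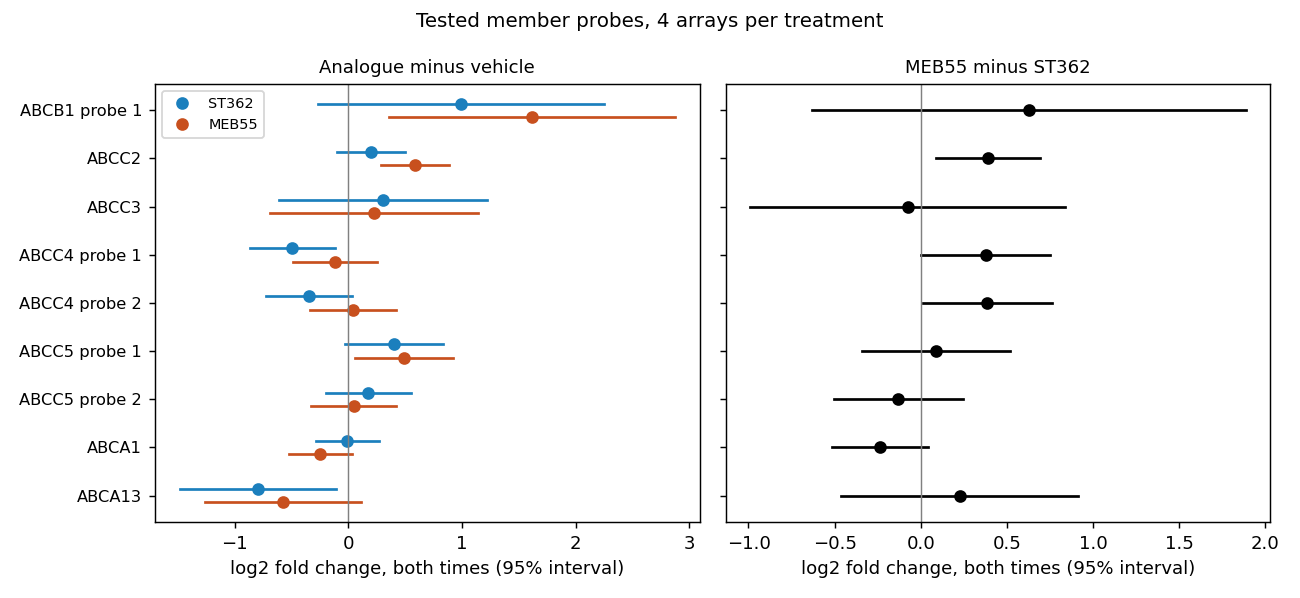
Log2 fold changes over both times with 95% intervals (x axis) of the 9 tested member probes (rows), for each analogue minus vehicle (left; blue ST362, red MEB55) and for MEB55 minus ST362 (right), from 4 arrays per treatment. The intervals are not adjusted for the number of probes. That of ABCB1 with MEB55 runs from 0.36 to 2.87. That of ABCC2, which was tested only through the MEB55 groups, runs from 0.29 to 0.89.

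The rest of the ABC family was followed as a list of 39 genes, of which 36 had a probe and 17 were tested, and 0 passed for either analogue over both times. At an unadjusted p under 0.05 there were 6 for ST362 and 2 for MEB55, where 13.2% and 10.5% of all probes had such a p, and the list median was -0.06 and -0.08. TAP1, a peptide transporter of antigen presentation, had the value 0.58 with ST362 and 0.24 with MEB55 (adjusted p = 0.295 and 0.799), and stood 1.07 and 1.13 above the vehicle mean on ST362 6 h replicate 2 and 24 h replicate 1. These were the arrays low in ABCB1. The mitochondrial transporter ABCB6 gave 0.47 and 0.07, the lysosomal peptide transporter ABCB9 -0.49 and -0.17, and the peroxisomal fatty acid transporter ABCD3 -0.39 and -0.32, with adjusted p from 0.188 to 0.941.

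Neighbours of ABCB1 on chromosome 7q21 were listed to set its pattern beside that of the region. Of 14 listed genes 12 had a probe and 8 were tested, with 0 past the test. An unadjusted p under 0.05 was found for 2 with ST362 and 1 with MEB55, beside 13.2% and 10.5% of all probes. The list medians were -0.02 with ST362 and -0.06 with MEB55. On the 4 arrays high in ABCB1 (ST362 at 6 h, ST362 at 24 h, MEB55 at 6 h, MEB55 at 24 h), CROT, a peroxisomal acyltransferase, stood at -0.02, 0.29, -0.28 and -0.16 and DBF4, a regulator of the replication kinase CDC7, at -0.38, -0.28, -0.15 and -0.28 from the vehicle mean. SLC25A40 lay between -0.34 and 0.00 and TMEM243 between -0.04 and 0.66 on the 8 analogue arrays, and ABCB1 between 0.08 and 3.26.

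Transcription factors and cofactors known to act on transporter genes (26 listed, 23 with a probe, 20 tested) held 0 past the test. At an unadjusted p under 0.05 there were 2 for ST362 and 3 for MEB55, beside 13.2% and 10.5% of all probes, and the medians were -0.06 and -0.03. EPAS1, a hypoxia-inducible factor, gave 0.79 and 0.57 (adjusted p = 0.165 and 0.410), NFYC, a subunit of the CCAAT-binding factor, 0.34 and 0.15 (0.384 and 0.826), RXRA, the partner of nuclear receptors, -0.18 and -0.38 (0.514 and 0.176), and JUN -0.56 and 0.11 (0.356 and 0.930), for ST362 and MEB55.

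Glutathione synthesis and conjugation, which makes substrates of the ABCC pumps, had 20 tested genes of 26 listed. An unadjusted p under 0.05 was found for 5 with ST362 and 6 with MEB55, beside 13.2% and 10.5% of all probes. After adjustment the list held 1 gene past the test, the same for each analogue. That gene was SLC7A11, the cystine carrier that feeds glutathione synthesis, for which limma gave 1.47 for ST362 (SE 0.25, adjusted p = 0.0341) and 1.55 for MEB55 (SE 0.25, adjusted p = 0.0214). It stood 0.99 to 1.84 above the vehicle mean on all 8 analogue arrays, whether ABCB1 was high or low there. With 1 array left out it was no longer past the threshold in 6 of 12 fits for ST362 (lacking either vehicle array of 6 h, the second vehicle array of 24 h, ST362 6 h replicate 2 or ST362 24 h replicate 1 or 2) and in 4 of 12 for MEB55 (lacking the same vehicle arrays or MEB55 24 h replicate 2). The adjusted p rose to at most 0.109 and 0.0900 over all alternatives, and the call was also lost for both analogues without background correction and with no probe filter. The study names SLC7A11 from these samples, so its place in the list is not independent of them. Among the conjugating enzymes, MGST2 gave 0.64 and 0.29 (adjusted p = 0.161 and 0.676), GSTT1 0.56 and -0.02 (0.174 and 0.983) and GSTM4 -0.22 and -0.48 (0.577 and 0.206).

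Partners of ABCA1 in cholesterol handling and targets of the oxysterol receptor LXR were 18 listed, 15 with a probe and 12 tested. An unadjusted p under 0.05 was found for 3 with ST362 and 1 with MEB55, beside 13.2% and 10.5% of all probes. After adjustment 0 passed the test for ST362 and 1 for MEB55. NPC1, which releases cholesterol from lysosomes, gave 0.91 for MEB55 (SE 0.17, adjusted p = 0.0422) and 0.60 for ST362 (SE 0.17, adjusted p = 0.130). It read 7.02 to 7.28 on vehicle, 7.40 to 7.99 with ST362 and 7.72 to 8.39 with MEB55, so neither analogue overlapped vehicle. On the 4 arrays high in ABCB1 and HSPA6 it stood 0.76 to 1.27 above the vehicle mean, and on the other analogue arrays 0.29 to 0.66, and the part of the stress response in this was not tested. Its call for MEB55 was lost in 7 of 12 fits that leave out 1 array (any vehicle array, MEB55 6 h replicate 1, MEB55 24 h replicate 2 or ST362 24 h replicate 1), with values of 0.79 to 1.02 and an adjusted p of at most 0.129. It was also lost without background correction, where the value was 0.65, with an offset of 50, with the authors' series values and with no probe filter. SMPDL3A, an LXR target, gave 0.92 and 0.28 (adjusted p = 0.107 and 0.769), NPC2 0.28 and 0.13 (0.335 and 0.784) and SREBF1 -0.26 and 0.01 (0.527 and 0.989).

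Drug uptake carriers and other resistance proteins (29 listed, 26 with a probe, 20 tested) held 0 past the test for either analogue. An unadjusted p under 0.05 was found for 4 with ST362 and 3 with MEB55, beside 13.2% and 10.5% of all probes. The organic anion carrier SLCO4A1 read 5.94 to 6.17 on vehicle, 5.96 to 6.31 with ST362 and 6.40 to 7.00 with MEB55. Its MEB55 arrays lay above all others, at a mean log2 difference from vehicle of 0.64 (SE 0.14, adjusted p = 0.0783) against 0.06 (adjusted p = 0.911) for ST362. SLC31A2, a copper transporter, gave 0.68 and 0.29 (adjusted p = 0.200 and 0.730), SLCO1B3 0.40 and 0.08 (0.295 and 0.923) and EZR, the membrane linker ezrin, -0.30 and -0.48 (0.452 and 0.263). The study names SLC31A2 from these samples too, so its place in the list and in the ST362 count is not independent of them. Medians of the glutathione, cholesterol and uptake lists were 0.14, -0.03 and 0.00 for ST362 and 0.15, 0.14 and 0.10 for MEB55, beside -0.01 for all genes.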

How the data were processed

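Total RNA of U2OS cells was hybridized to Illumina HumanHT-12 bead arrays, 12 in all. Images were read by the authors with GenomeStudio, whose version is not given in the sources used here. The authors deposited intensity values per probe, without background subtraction or normalization. The deposited detection p-values set each probe against the negative controls on the array. A table of series values deposited by the authors holds quantile normalized intensities on a linear scale and served as an alternative. The slides of the arrays are not given in the sources used here. Of the signal columns, 0 were left unused.

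The function neqc (limma 3.58.1, R 4.3.3, offset 16) corrected the 47313 signals for background with the detection p-values, normalized quantiles and took log2. A probe was tested if some group had it detected at p under 0.05 on both its arrays (22186 probes), with lmFit and eBayes in a fit of 6 groups and a fit of treatment only, and Benjamini-Hochberg adjustment over all tested probes at 0.05. Residual degrees of freedom were 6 and 9 and the median residual SD 0.230 and 0.221. Genes came from the platform annotation (30109 probes with 1 symbol, 8 with several, 17196 with none), and a gene was read from its brightest tested probe. Precision is limited by the 2 arrays per group.

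All member probes are named, with up to 4 genes per list of smallest adjusted p over both times, the 5 genes most correlated with ABCB1 and with ABCA13 (provisional symbols left out), and HSPA6, HSPA1B and DDIT3. The members, lists and the fit over both times were chosen with earlier results of these data known. Promoter windows came from RefSeq, which had windows for 7 of 9 members. The fits were tested on simulated data with the same spread in every group, which hold no split such as that of ABCB1. Alternatives covered background correction, offset, normalization, probe filter, variance model, array weights, a replicate block, probes of a gene, the methods' cutoff and each array left out.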

Additional observations from a re-analysis of the deposited data

Results flagged for a closer look

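ABCC5 probe ILMN_2302358 read 4.54 on vehicle 6 h replicate 1, where it was detected, while the other 3 vehicle arrays lay between 4.19 and 4.24. Of 36 sets of 4 arrays examined over the member probes, this was the 1 set in which an array stood apart by Dixon's criterion, which chance gives in about 1 set in 20. The same array had the highest upper quartile of the deposited signal.

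For ABCC3 both MEB55 arrays lay above the vehicle mean at 6 h, replicate 1 barely, and both below it at 24 h. The MEB55 effect at 24 h minus that at 6 h was -1.13, with an adjusted p of 1.00 in the limma interaction term. For ABCA1 both ST362 arrays lay above the vehicle mean at 6 h and both below it at 24 h. Its effect at 24 h minus that at 6 h was -0.40, and the interaction term had an adjusted p of 0.999.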

How the results depend on the processing

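The count of members past the test was 0 in every comparison and under every alternative. Counts over all probes moved. The methods' model and cutoff (2-fold, unadjusted p under 0.05, signal of 100 or more) gave 81 probes for ST362 and 84 for MEB55 at 6 h, and 109 and 89 at 24 h, in place of 0, and 0 members. After Benjamini-Hochberg adjustment it gave 0. Scaling to the 75th percentile gave 2 for MEB55 at 24 h. Over both times ST362 had 128 probes, and 72 without background correction, 85 with an offset of 50, 0 with no probe filter and 267 with array weights. MEB55 had 99, and 29, 65, 53 with the authors' series values and 31 with no probe filter. MEB55 against ST362 had 4, and 0 with no filter. Leaving out each array in turn gave 0 to 230 for ST362, 16 to 71 for MEB55, 0 to 4 between them, and 0 to 2 at 6 h for MEB55 against vehicle and against ST362. Among members, ABCC5 between the analogues turned to -0.0205 with the mean of its probes, and ABCA1 with ST362 to 0.0442 under 75th percentile scaling. With 1 array left out ABCB1 between the analogues ranged from -0.52 to 1.64 at 6 h and -0.84 to 2.23 at 24 h, its change with time from -0.16 to 0.10 in vehicle, -0.76 to 0.98 for the ST362 effect and -1.29 to 1.78 for the MEB55 effect, ABCC2 with ST362 at 24 h from -0.005 to 0.30, ABCC5 between the analogues from -0.0784 to 0.22, ABCC3 from -0.0693 to 0.61 (ST362) and -0.0241 to 0.50 (MEB55), ABCA1 with ST362 from -0.10 to 0.0464 and ABCA13 with MEB55 at 24 h from -0.38 to 0.12. Where an alternative moved a value, the cause was not tested. The adjusted p of ABCC2 with MEB55 over both times ranged from 0.0576 to 0.241. The fits for SLC7A11 and NPC1 were added after their values were seen. Same-numbered arrays of different groups deviated together in 3 of 15 pairs of groups (range of r -0.386 to 0.492), which were ST362 with MEB55 at 6 h (0.492) and at 24 h (0.476) and vehicle at 6 h with vehicle at 24 h (0.367). The numbers thus tie the analogues within a time label, as a hint from the data and not from the labels, and do not pair all groups. A fit of the 8 analogue arrays with time and number together as a block, chosen after the data were seen, called 61 probes and 0 members between the analogues. ABCB1 was then 0.63 higher with MEB55 (95% interval 0.13 to 1.13, adjusted p = 0.304), ABCC2 0.39 (0.105 to 0.67, 0.269) and ABCC4 0.38 (0.05 to 0.71, 0.348), from differences within pairs of -0.17 to 1.56, 0.06 to 0.60 and 0.02 to 0.77. These were the 3 members at an unadjusted p under 0.05 in that fit, beside 12.5% of all probes, and ABCC2 was tested only through the MEB55 groups. The intervals of ABCC3, ABCC5, ABCA1 and ABCA13 included 0. With the replicate number alone as a block over all arrays, 105 probes were called for ST362, 82 for MEB55 and 3 between them over both times, and the call of no member or of the named list genes changed. Such a block cannot take up the split of ABCB1, which fell on replicate 1 at 6 h and replicate 2 at 24 h. Signals near background limit ABCC2, ABCA1, ABCG2 and the other ABCB1 probe.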
